A study of Rattus norvegicus with 12 samples.

Results

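The T cell receptor complex and its co-receptors were followed in injured pelvic floor muscle through 10 genes: Cd3e, Cd3d, Cd3g, Cd247, Cd4, Cd8a, Cd8b, Lck, Zap70 and Cd28. Members were found by gene symbol in a count table of 30206 genes. A row was found for 9 of the 10, and all 9 passed the filter on low counts, which kept 14599 genes. No row carried the symbol Cd4, so this co-receptor was not analysed here. The question was how these genes differed with lactation and time after injury, and whether Cd28 followed the other T cell genes from library to library.

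Pubocaudalis, a muscle of the rat pelvic floor, was taken from 3-month-old female Sprague-Dawley rats. All rats had simulated birth injury (SBI), in which the vagina is distended with a balloon, on day 20 of pregnancy. In the 1wk SBI and 3wk SBI groups the pups were removed after delivery, and in the 1wk SBI + Lac and 3wk SBI + Lac groups the dams kept their pups and lactated. Each group had 6 rats, whose RNA was pooled by 2 into 3 libraries, so each value below is an average over a pair of rats. No uninjured muscle was among the libraries. Removal of pups and absence of lactation go together in this design and cannot be told apart.

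A T cell recognises antigen through the T cell receptor, whose antigen-binding chains carry no signaling tail of their own. The signal is passed on by the CD3 chains (Cd3e, Cd3d, Cd3g) and the zeta chain (Cd247). CD4 and CD8 (Cd8a, Cd8b) bind the major histocompatibility molecules that present antigen and bring along the kinase Lck, which phosphorylates the CD3 and zeta chains so that the kinase Zap70 can dock. Cd28 is the co-stimulatory receptor for CD80 and CD86 on antigen-presenting cells. Several of these genes are not restricted to T cells: NK cells use Cd247, Lck and Zap70, and in the rat Cd8a is also carried by NK cells and Cd4 by monocytes and macrophages. In regenerating muscle, T cells are a small population beside macrophages, and regulatory T cells are known to aid repair.

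The promoters of Cd3e, Lck, Zap70 and Cd28 are shown because they stand for a receptor chain, the kinases and the co-stimulatory receptor whose agreement is described below. Each window runs from 250 bases before to 50 bases after the RefSeq gene start in the GRCr8 assembly, 5′ to 3′ on the gene's strand (for Lck the first of 2 starts listed), and capitals mark GGAA on either strand (TTCC on the opposite one), the core of the site bound by ETS factors. The windows are chr8:54211721-54212020 on the minus strand for Cd3e, chr5:147201218-147201517 on the minus strand for Lck, chr9:46485355-46485654 on the plus strand for Zap70 and chr9:69660066-69660365 on the plus strand for Cd28.
Cd3e: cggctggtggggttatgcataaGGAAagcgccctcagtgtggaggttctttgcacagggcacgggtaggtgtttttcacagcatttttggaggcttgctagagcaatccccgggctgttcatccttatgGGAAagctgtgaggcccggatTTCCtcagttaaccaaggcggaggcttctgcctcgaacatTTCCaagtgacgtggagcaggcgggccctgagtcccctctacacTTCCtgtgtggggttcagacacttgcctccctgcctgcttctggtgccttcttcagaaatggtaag
Lck: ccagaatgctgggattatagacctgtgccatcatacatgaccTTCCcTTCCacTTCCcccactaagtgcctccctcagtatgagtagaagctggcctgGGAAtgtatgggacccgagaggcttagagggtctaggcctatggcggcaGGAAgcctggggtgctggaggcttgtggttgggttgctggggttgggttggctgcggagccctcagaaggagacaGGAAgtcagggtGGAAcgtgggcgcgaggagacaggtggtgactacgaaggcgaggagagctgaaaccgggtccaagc
Zap70: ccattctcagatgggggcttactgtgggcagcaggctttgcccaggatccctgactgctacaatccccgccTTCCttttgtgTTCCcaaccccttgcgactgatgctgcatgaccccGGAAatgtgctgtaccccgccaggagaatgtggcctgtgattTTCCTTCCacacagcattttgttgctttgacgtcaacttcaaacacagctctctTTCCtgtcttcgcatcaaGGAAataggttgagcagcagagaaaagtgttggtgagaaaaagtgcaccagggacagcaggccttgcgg
Cd28: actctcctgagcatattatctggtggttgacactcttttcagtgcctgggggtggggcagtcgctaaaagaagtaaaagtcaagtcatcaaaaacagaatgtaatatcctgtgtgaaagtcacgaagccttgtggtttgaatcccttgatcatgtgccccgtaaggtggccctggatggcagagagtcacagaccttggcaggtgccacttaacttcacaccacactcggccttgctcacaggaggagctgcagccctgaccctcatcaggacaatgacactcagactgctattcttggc
These letters occurred 5 times in the Cd3e window, 7 times in Lck, 7 times in Zap70 and 0 times in Cd28. In the windows not shown they occurred 4 times for Cd3d, 3 for Cd8a, 2 for Cd3g and 2 for Cd247. The windows shown thus include those with the most copies among the members. Of 33469 rat promoter windows of the same length, 95.8% held at least 1 copy, with a median of 3. The Cd28 window held 2 copies of the RUNX core TGTGGT, searched on both strands, which 17.3% of all windows held, against 1 copy in Lck and 0 in Cd3e and Zap70. The E-box CANNTG and the GATA site GATAA were also searched, and 72.1% and 26.5% of all windows held them. E-box copies were 2 in Cd28, 2 in Cd3e, 1 in Lck and 1 in Zap70. GATA copies were 1 in Cd28 and 0 in the other windows shown. The motifs were chosen with the values of the genes known. A match describes letters only, and the 0 for Cd28 says no more than that GGAA is not in this window.

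Library totals ran from 10082734 to 75634391 counts, so that 1 count was worth between 0.012 and 0.110 CPM (counts per library, rescaled so that libraries of unlike depth can be compared). All levels below are CPM on TMM-scaled library sizes, called normalized CPM, and intervals or limits cover counting error only. The muscle label held: 11 of 13 skeletal muscle markers had a row and together reached 95600 to 230500 CPM in every library. In 3wk SBI replicate 3 and 3wk SBI + Lac replicate 2 the 10 markers of B cells and plasma cells summed to 52.3 and 36.8 CPM, against 2.20 to 8.15 in the other 10 libraries. The same pair of libraries had the most Cd3e of their time point, and the results they moved are given with and without them. Their totals, 75634391 and 70187854 counts, were also the highest of all libraries, the next being 51662983 in 1wk SBI replicate 1. Leaving them out therefore changes depth and cell content together, and these cannot be told apart. In the 3-week columns, 26.6% to 44.0% of the values carried decimals and in the 1-week columns none did, so differences between 3 weeks and 1 week cannot be told apart from a change in counting.

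The T cell signal was low, and its precision was limited by counts. Of 96 values of the 8 members other than Cd28, 52 rested on 10 counts or fewer and 9 on 0 counts. All values of Cd28 rested on 23 counts or more. Transcript lengths were not available, so levels are compared across libraries within a gene and not between genes. In bulk muscle, fewer T cells and less RNA per T cell cannot be told apart.

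Cd28, the co-stimulatory receptor, was measured at 23.6, 12.2 and 11.1 normalized CPM in the 3 libraries of 1wk SBI and at 9.64, 4.58 and 7.45 in 1wk SBI + Lac. At 3 weeks it was 12.7, 6.63 and 12.0 in 3wk SBI and 3.26, 2.13 and 2.53 in 3wk SBI + Lac. Lactating libraries lay below non-lactating ones at both times without overlap. Means ran in the order 1wk SBI (15.6 ± 6.95, SD, n = 3), 3wk SBI (10.4 ± 3.30), 1wk SBI + Lac (7.22 ± 2.54) and 3wk SBI + Lac (2.64 ± 0.571). The range of 3wk SBI overlapped those of 1wk SBI and of 1wk SBI + Lac, and all libraries of 3wk SBI + Lac stood below those of the other 3 groups.

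Cd8b, the beta chain that pairs with Cd8a on cytotoxic T cells, was measured at 0.929, 0.675 and 0.773 normalized CPM in 1wk SBI and at 0.131, 0.339 and 0.119 in 1wk SBI + Lac. At 3 weeks the values were 1.07, 0.495 and 0.768 in 3wk SBI and 0.195, 0.0976 and 0.110 in 3wk SBI + Lac. Every library of both non-lactating groups lay above every library of both lactating groups. These levels rested on 33 to 58 counts per library in 1wk SBI, 4 to 10 in 1wk SBI + Lac, 8 to 64 in 3wk SBI and 1 to 6 in 3wk SBI + Lac.

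Cd8a, the alpha chain, was 0.689, 1.08 and 0.656 normalized CPM in 1wk SBI and 0.885, 0.136 and 0.358 in 1wk SBI + Lac, and these ranges overlapped. In 3wk SBI it was 0.966, 0.557 and 1.87. In 3wk SBI + Lac it was 0.781 in replicate 2 and 0 counts in replicates 1 and 3, where 3 counts would have been 0.0977 and 0.330 CPM. Cd8b counts as a share of all Cd8a and Cd8b counts moved from 11.1% (95% exact interval 4.19 to 22.6) in 3wk SBI + Lac replicate 2 to 57.4% (47.2 to 67.2) in 1wk SBI replicate 1 among libraries with more than 20 such counts. The 2 chains of CD8 were therefore not counted in 1 ratio across the libraries.

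Lck, the kinase that starts the signal, was 0.897, 1.60 and 0.914 normalized CPM in 1wk SBI and 0.984, 0.237 and 0.645 in 1wk SBI + Lac. At 3 weeks Lck was 1.18, 1.24 and 3.34 in 3wk SBI and 0.391, 1.24 and 0.110 in 3wk SBI + Lac. The lactating and non-lactating ranges overlapped at both times, and the 1.24 in 3wk SBI + Lac belonged to replicate 2, the library rich in B cell markers. Zap70, the kinase downstream of Lck, ranged from 0 counts in 1wk SBI + Lac replicate 1 and 3wk SBI + Lac replicate 3 to 0.864 CPM in 3wk SBI replicate 3.

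Cd3e, the CD3 chain most used as a T cell marker, was 0.401, 0.928 and 0.0937 normalized CPM in 1wk SBI and 0.262, 0.0339 and 0.119 in 1wk SBI + Lac. In 3wk SBI it was 0.429, 0.186 and 1.74. In 3wk SBI + Lac it was 0.261, 1.01 and 0 counts, the last with an upper 95% limit of 0.4055 CPM. In 3 of 4 groups the gap between the highest and the lowest library was larger than any difference between group means. Cd3d, Cd3g and Cd247, the other signaling chains, spread as widely, from 0 counts for Cd3d in 3 libraries and for Cd3g in 1 library to 0.715 CPM for Cd3d, 0.996 for Cd3g and 1.18 for Cd247.

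**Figure D1:**
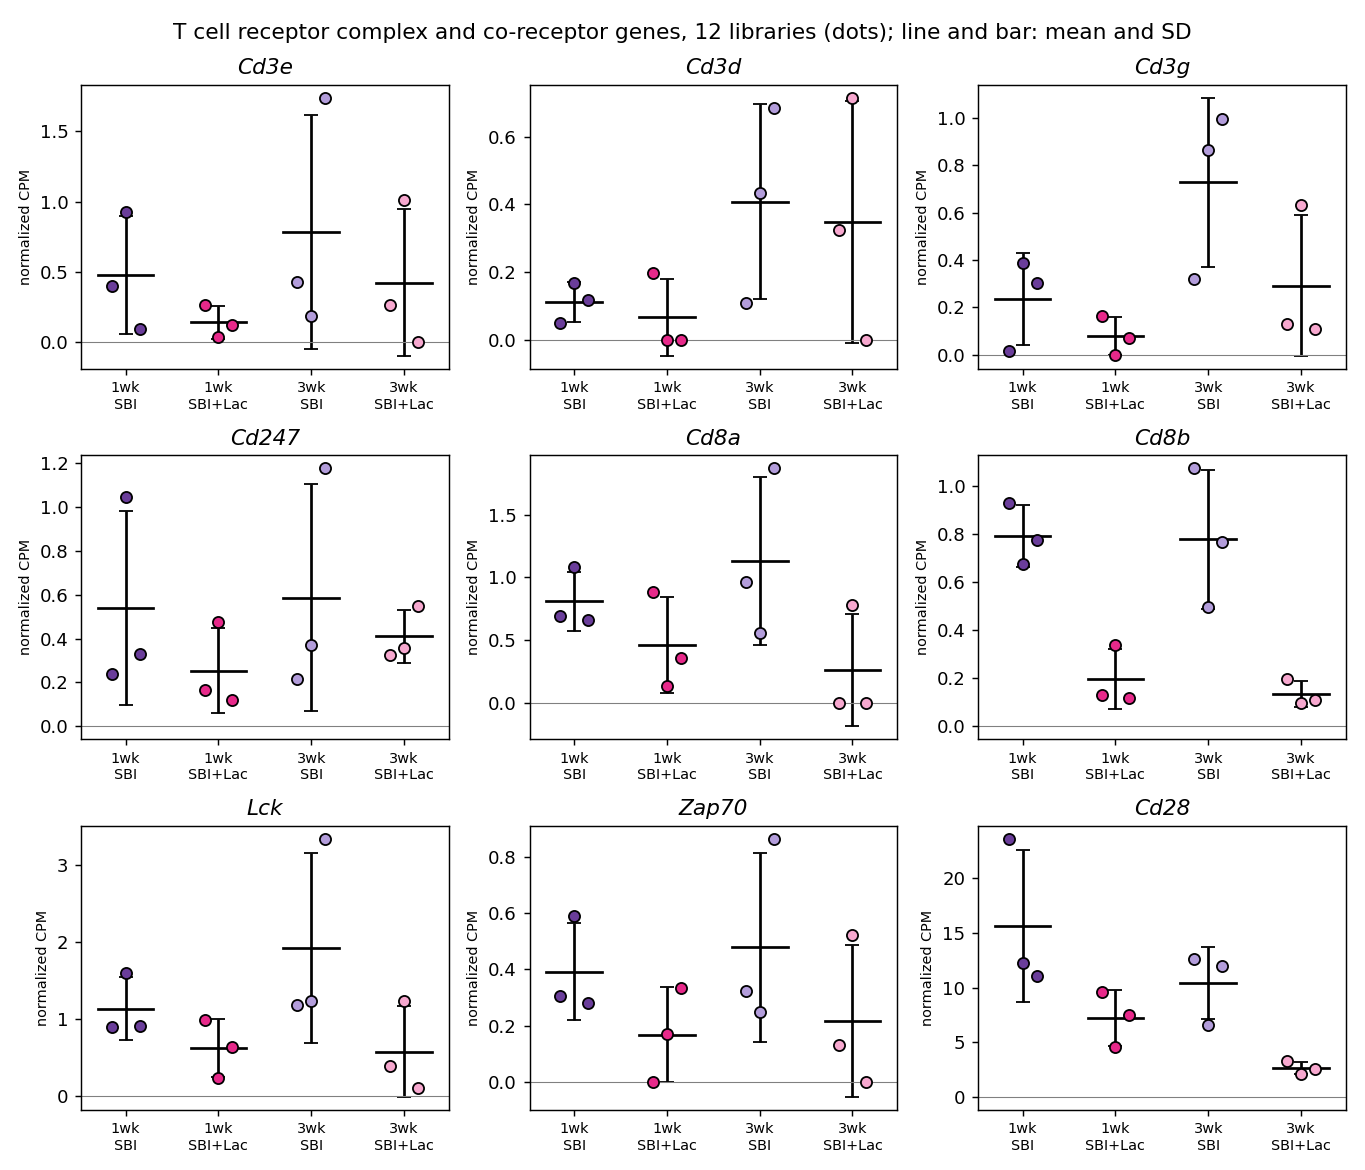
Normalized CPM (TMM-scaled, linear axis, 1 scale per gene) of the 9 genes in the 4 groups. Each dot is a library pooled from 2 rats, and lines with bars give the mean and SD of 3 libraries. Cd28 and Cd8b are the genes whose lactating dots lie below the non-lactating dots at both times, while in the other genes the ranges overlap.

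Lactation at 1 week was compared first, 1wk SBI + Lac against 1wk SBI. All 9 genes had a log2 fold change below 0, as had 50.5% of all genes tested, with a median of -1.13 over the 9 against -0.004 over all genes. By edgeR's quasi-likelihood test 0 of 9 passed both cutoffs (adjusted p of 0.05 and absolute log2 fold change of 1), where 0.253% of all genes did. At an unadjusted p of 0.05 the count was 2 of 9, Cd8b and Cd28, against 18.9% of all genes, and DESeq2 called the same 2. The same 2 did not overlap between groups, a share close to the 28.4% of all genes that did not overlap.

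Cd8b had the largest value at 1 week, with a log2 fold change of -2.03 (SE 0.551, edgeR adjusted p = 0.0814). For Cd28 it was -1.12 (SE 0.338, adjusted p = 0.114). Cd28 moved to -0.69 without 1wk SBI replicate 1, the library with the highest Cd28, at an edgeR adjusted p of 0.424. For Cd3e, Cd3g, Cd247, Zap70, Lck, Cd3d and Cd8a the values were -1.78, -1.53, -1.13, -1.15, -0.87, -0.82 and -0.82, with edgeR adjusted p from 0.384 to 0.748. Their standard errors, from 0.621 to 1.20, were of the size of the effects.

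Lactation at 3 weeks was compared in the same way, 3wk SBI + Lac against 3wk SBI. Cd28 and Cd8b passed both cutoffs in edgeR, 2 of 9 where 0.740% of all genes did and 0.534% did so in the lower direction. All 9 genes were again below 0, as were 52.3% of all genes, with a median log2 fold change of -1.17 against -0.019. Groups did not overlap for the same 2 of 9, against 22.3% of all genes. Counts at an unadjusted p of 0.05 were 3 of 9, Lck being added to Cd28 and Cd8b, against 21.1% of all genes.

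Cd28 fell by 1.99 on the log2 scale (SE 0.384, edgeR adjusted p = 0.0219) in lactating muscle at 3 weeks. The call did not hold without 3wk SBI replicate 3 (-1.84, edgeR adjusted p = 0.111) or without replicate 1 (-2.21, 0.0647), replicate 2 (-1.80, 0.0939) or replicate 3 (-1.97, 0.0728) of 3wk SBI + Lac. Without both libraries rich in B cell markers it was -1.65 (edgeR adjusted p = 0.259). Every 3wk SBI + Lac library lay below every 3wk SBI library, while the side of the threshold depended on which libraries entered.

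Cd8b fell by 2.48 on the log2 scale (SE 0.621, edgeR adjusted p = 0.0485) at 3 weeks. Its call ended without 3wk SBI replicate 1 (-2.26, edgeR adjusted p = 0.0641) or replicate 3 (-2.46, 0.145). It also ended without replicate 1 (-2.88, 0.0997), replicate 2 (-2.15, 0.160) or replicate 3 (-2.42, 0.103) of 3wk SBI + Lac, and without both libraries rich in B cell markers it was -2.13 (0.313). With all libraries in, the call also ended in edgeR on the libraries compared (adjusted p = 0.088), without a low-count filter (0.0578), with a replicate block (0.0901) and after thinning to equal depth (-1.69, 0.222). The 3wk SBI + Lac libraries held 6, 6 and 1 Cd8b counts, which limits how closely this fall can be sized.

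The other 7 genes did not pass at 3 weeks. Lck had a log2 fold change of -1.57 (SE 0.631, edgeR adjusted p = 0.172) and Cd8a of -1.77 (SE 0.929, 0.294). Without 3wk SBI + Lac replicate 2, Cd8a had 0 counts in the lactating libraries that remained and edgeR gave an adjusted p of 0.0475. Cd3g, Zap70, Cd247, Cd3e and Cd3d were at -1.17, -0.94, -0.80, -0.80 and -0.16, with edgeR adjusted p from 0.476 to 0.944. Without 3wk SBI replicate 3 the values of Cd3e (0.83), Cd3d (0.49) and Cd247 (0.33) lay above 0 and that of Zap70 was 0.002, so the direction of these genes at 3 weeks changed with that library. Without both libraries rich in B cell markers Cd3e was at -0.68 and Zap70 at -1.54, and Cd247 was at 0.41. Cd3d also turned, to 0.20, without 3wk SBI + Lac replicate 3.

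**Figure D2:**
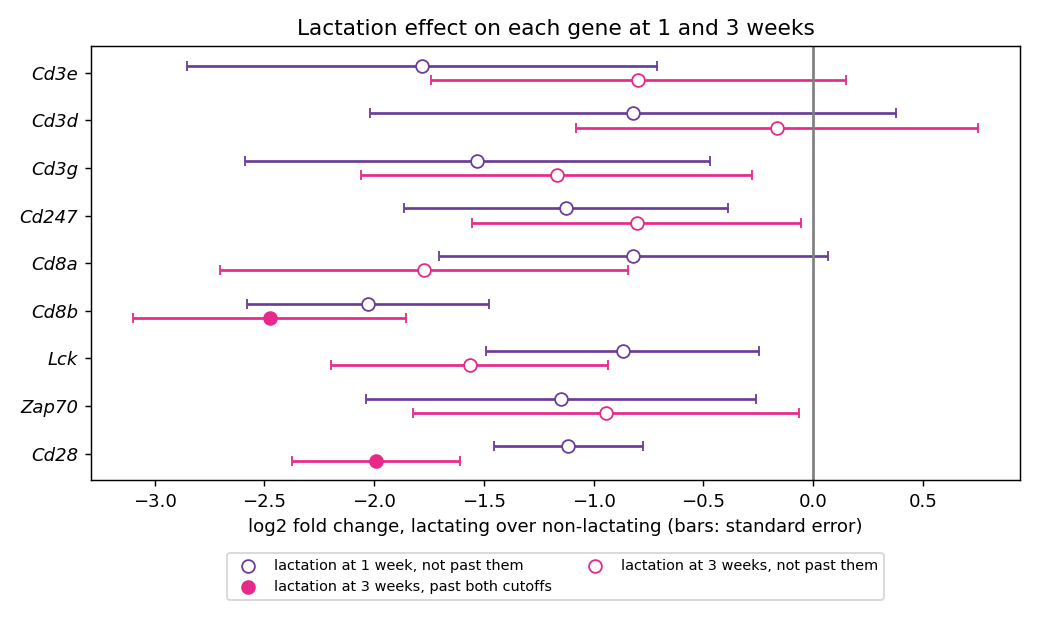
Log2 fold change of lactating over non-lactating libraries for each gene at 1 and 3 weeks, with bars of 1 standard error. All 18 values lie below 0, and filled points mark Cd28 and Cd8b at 3 weeks, the only values past both cutoffs.

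Whether the lactation effect changed between 1 and 3 weeks was tested as a difference of the 2 effects. In edgeR 0 of 9 genes passed, where 0.00685% of all genes did, and 0 of 9 had an unadjusted p under 0.05, against 4.42% of all genes. DESeq2 called 0 of 9 as well. For Cd28 the difference was -0.88 on the log2 scale (SE 0.507, edgeR adjusted p = 0.999). Cd28 and Cd8b passing at 3 weeks and not at 1 week is thus no shown difference between the times.

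Between 1 and 3 weeks, the values of the 9 genes lay on both sides of 0. Without lactation 0 of 9 passed in edgeR, where 1.46% of all genes did, and 0 of 9 had an unadjusted p under 0.05 (21.2% of all genes) or groups that did not overlap (21.6% of all genes). Cd3d was the farthest from 0, at 2.05 (SE 0.977, edgeR adjusted p = 0.244), and Cd28 was at -0.59 (SE 0.340, 0.351). With lactation 0 of 9 passed, where 0.774% of all genes did, and 2 of 9 had an unadjusted p under 0.05 (18.1% of all genes). These were Cd28 at -1.46 (SE 0.379, edgeR adjusted p = 0.0675), whose groups did not overlap (28.1% of all genes), and Cd3d at 2.71 (SE 1.12, 0.213), whose groups did. DESeq2 called Cd28 in this comparison. It was also called by edgeR on the libraries compared alone (adjusted p = 0.0113) and with a replicate block (0.0101), so its call depends on the fit. With lactation the CD3 genes Cd3e, Cd3d and Cd3g had positive values and Cd28 a negative one.

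Agreement between genes was read from log2 CPM over the 12 libraries, both as they stood and after each gene was centred on its group mean, so that group differences could not make the relation. Among the 7 genes other than Cd28 and Cd8b, all 21 centred correlations were above 0, from r = 0.002 to 0.917 with a median of 0.55. Without the 2 libraries rich in B cell markers the same 21 ran from -0.42 to 0.828 with a median of 0.197. The closest pairs were Cd3e with Lck (0.92 centred, 0.87 as measured), Lck with Cd8a (0.88 and 0.90) and Lck with Cd3d (0.86 and 0.70). Without the 2 libraries these pairs were at 0.83, 0.75 and 0.79 after centring, while Lck with Zap70 went from 0.55 to 0.060 and Cd3e with Cd3g from 0.48 to 0.178. Cd247 was the loosest of the 7, with centred values from 0.002 to 0.223 to the other genes of that set, and from -0.28 to 0.197 without the 2 libraries. Libraries share depth and cell content, so these values describe the libraries and carry no p.

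Cd8b and Cd28 had lower centred values. Centred correlations of Cd8b with the same 7 genes ran from -0.68 to 0.093 with a median of -0.31, and with Cd8a, its partner chain and neighbor on the chromosome, it was -0.40. Without the 2 libraries the 7 ran from -0.69 to 0.269. Correlations of Cd28 with the 8 other genes ran from -0.38 to 0.332 after centring, with a median of 0.050, and from -0.71 to 0.599 without the 2 libraries. The 3 CD3 genes also lie side by side in the rat genome (Cd3g, Cd3d, Cd3e), and their centred correlations were 0.48 to 0.74, or 0.178 to 0.611 without the 2 libraries.

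**Figure D3:**
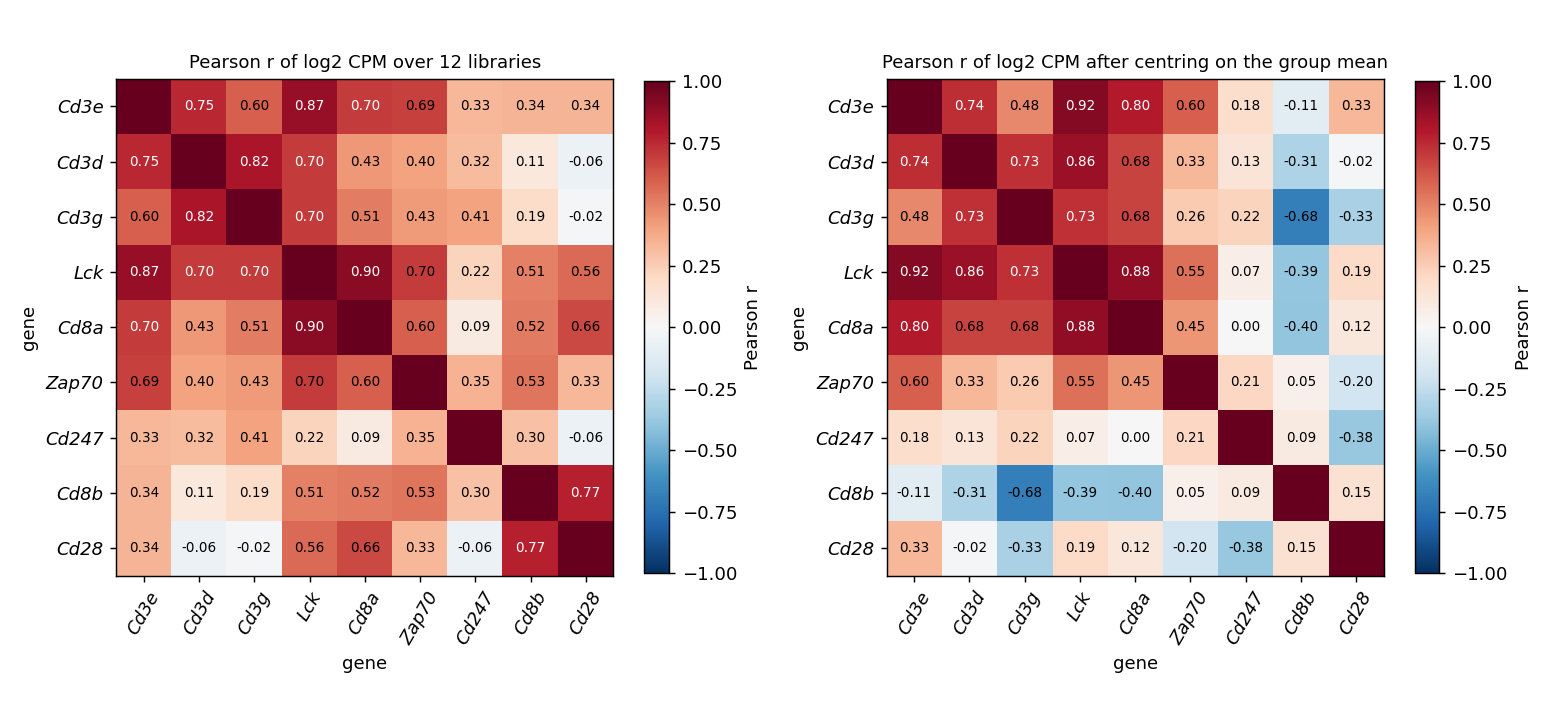
Pearson r of log2 CPM between the 9 genes over 12 libraries, as measured (left) and after centring on group means (right), red above 0 and blue below. The block from Cd3e to Cd8a is red in both panels, while the Cd8b and Cd28 rows turn pale or blue after centring.

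Whether Cd28 followed the other T cell genes was tested with an exact permutation of the libraries within groups. After centring 0 of 8 relations passed, with r (and Spearman's rho) of 0.332 (0.343) for Cd3e, 0.188 (0.175) for Lck, 0.152 (0.245) for Cd8b, 0.116 (0.217) for Cd8a, -0.017 (0.039) for Cd3d, -0.195 (-0.091) for Zap70, -0.326 (-0.273) for Cd3g and -0.380 (-0.413) for Cd247. The exact permutation p adjusted over 8 relations was 0.797 for 7 of them and 0.963 for Cd3d. With the 2 libraries rich in B cell markers left out, r was 0.565 for Cd3e, 0.599 for Cd8a and 0.425 for Lck, with adjusted p from 0.37 to 0.542 in the same exact permutation test. No relation of Cd28 with the receptor or kinase genes within groups was detectable in 12 libraries. In 10 libraries too few arrangements remain for a single relation to pass after adjustment over 8, so that test cannot decide.

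Over the 12 libraries without centring, Cd28 had r = 0.774 and rho = 0.86 with Cd8b (permutation p = 0.00416, adjusted over 8 relations 0.0333), and r = 0.632 without the 2 libraries farthest from the median of Cd8b. The groups contribute to this value, since both genes were lower with lactation. Cd8a had r = 0.661 and rho = 0.643 with Cd28 (permutation p = 0.0185, adjusted 0.0739), Lck r = 0.563, Cd3e 0.336 and Zap70 0.334, while Cd3g, Cd247 and Cd3d lay between -0.016 and -0.058. Without the 2 libraries rich in B cell markers these uncentred values rose to 0.886 for Cd8a (rho = 0.867, permutation p = 0.00046, adjusted 0.00368, r = 0.714 without the 2 libraries farthest from the median) and 0.798 for Lck (rho = 0.636, permutation p = 0.00455, adjusted 0.0182, r = 0.609). Cd3e was then at 0.68 (rho = 0.733, permutation p = 0.0307, adjusted 0.0615), Cd8b at 0.707 (adjusted 0.0615) and Zap70 at 0.544 (adjusted 0.171), while Cd3d, Cd3g and Cd247 were at 0.141, 0.091 and -0.234. Most of this shift came with 3wk SBI + Lac replicate 2, where Cd3e, Lck and Cd8a were the highest of their group and Cd28 the lowest. Without it alone r was 0.876 for Cd8a, 0.762 for Lck, 0.656 for Cd3e and 0.566 for Zap70. Without 3wk SBI + Lac replicate 3, in contrast, r fell to 0.123 for Cd3e and 0.10 for Zap70, and was 0.551 for Cd8a and 0.402 for Lck. These were the lowest values of these genes with any single library left out. Whether Cd28 went with Cd3e and Zap70 across the groups therefore depended on single libraries, while for Cd8a and Lck the size of r did. Within the 6 libraries of 3 weeks, Cd28 and Cd8b had r = 0.993 and rho = 1 (exact permutation p = 0.00139, the smallest that 6 libraries allow, adjusted 0.0111). The groups contribute to this value too. After centring r was 0.935 (exact permutation within groups, p = 0.0278, the smallest that 36 arrangements allow). A single relation at that p cannot pass after adjustment over 8, so the 0 of 8 that passed decides nothing here. Within the 6 libraries of 1 week r was 0.598, and -0.39 after centring (exact permutation adjusted p of the uncentred value 0.431).

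This contrast between the times rested on 1 library. In 1wk SBI + Lac replicate 2, Cd28 was the lowest of its group (4.58 CPM) and Cd8b the highest (0.339 CPM, from 10 counts). Without it the centred r of Cd28 and Cd8b over 11 libraries was 0.812 instead of 0.152 (exact permutation p = 0.00463, adjusted over 8 relations 0.037). Leaving out any other single library left 0 of 8 relations past the threshold.

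**Figure D4:**
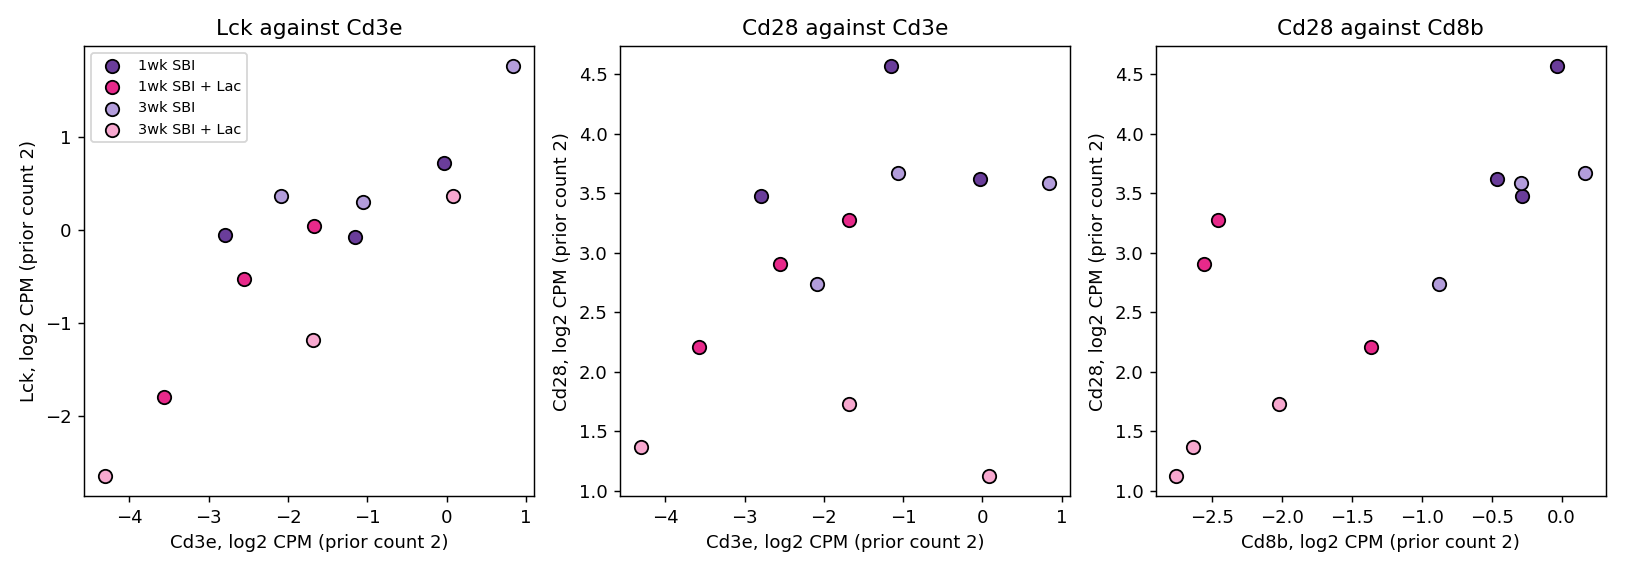
Log2 CPM (prior count 2) of Lck against Cd3e, Cd28 against Cd3e and Cd28 against Cd8b, with 1 dot per library colored by group. Lck rises with Cd3e across all groups (r = 0.87), Cd28 and Cd3e have r = 0.34 (0.68 without 3wk SBI replicate 3 and 3wk SBI + Lac replicate 2), and Cd28 and Cd8b separate lactating from non-lactating libraries (r = 0.77).

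Set side by side, Cd28 counts were 33.5 times the summed counts of Cd3e, Cd3d, Cd3g and Cd247 in 1wk SBI replicate 1 and 0.784 times that sum in 3wk SBI + Lac replicate 2. The ratio was 4.83 to 33.5 in 1wk SBI, 9.0 to 24.0 in 1wk SBI + Lac, 2.61 to 11.8 in 3wk SBI and 0.784 to 3.83 in 3wk SBI + Lac, where the libraries other than replicate 2 were at 3.12 and 3.83. The ranges of lactating and non-lactating libraries overlap at both times.

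The 5 genes most like Cd28 over the 12 libraries were Macf1 (r = 0.948), which encodes a linker of microtubules and actin, Olfm1 (0.948), Osbpl3 (0.933), Dtl (0.933), an adaptor of a ubiquitin ligase, and Tradd (0.933), an adaptor of tumor necrosis factor receptors. The 5 most like Cd3e were Tnfrsf14 (0.913), the receptor of the LIGHT cytokine, Cmklr1 (0.90), the chemerin receptor, Il1rn (0.887), the interleukin-1 receptor antagonist, Septin1 (0.872) and Wsb1 (0.871). The lists shared no gene. Cd28 lies between Raph1 and Ctla4 in the RefSeq gene order, followed by Icos. Ctla4, the inhibitory receptor for the same ligands, was at 0 counts in 9 of 12 libraries and at most 0.102 CPM, and Icos, a related co-stimulatory receptor, ran from 0.107 to 1.56 CPM.

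The wider receptor machinery was read from 3 lists. Of 30 genes of T cell receptor signaling and adaptors, 24 were tested and 0 passed in any of the 5 comparisons. Over all genes, 0.00685% to 1.46% passed in these comparisons, so 0 calls in so short a list says little. At 1 week 18 of 24 and at 3 weeks 21 of 24 were below 0 with lactation, with medians of -0.57 and -0.56. Of all genes 50.5% and 52.3% were below 0. The farthest at 1 week were Sh2d2a (-1.98), an Lck-binding adaptor, Cd27 (-1.33) and the kinase Txk (-1.14), with edgeR adjusted p from 0.305 to 0.446. At 3 weeks they were Txk (-2.18), Cd7 (-2.03) and the adaptor Grap2 (-1.52), with edgeR adjusted p from 0.132 to 0.305.

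Of 18 genes of co-stimulation and checkpoints, 14 were tested, and 11 at 1 week and 12 at 3 weeks were below 0 with lactation, with medians of -0.74 and -0.46. The shares of all genes were 50.5% and 52.3%. Lag3, a checkpoint receptor, was at -3.07 at 1 week (SE 1.34, edgeR adjusted p = 0.231), Cd80, a ligand of Cd28, at -1.85 (0.275) and Btla at -1.59 (0.109). At 3 weeks Pdcd1lg2 was at -2.28 (SE 0.859, edgeR adjusted p = 0.146), Icos at -1.77 (0.188) and Lag3 at -1.40 (0.449). The only call in this list was Btla, an inhibitory receptor, which was lower at 3 weeks than at 1 week without lactation (-2.47, SE 0.544, edgeR adjusted p = 0.0198). In that comparison 1.46% of all genes passed.

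Of 23 genes of T cell identity and homing, 18 had a row and all 18 were tested, with 0 calls in any comparison, where 0.00685% to 1.46% of all genes passed. At 1 week 15 of 18 were below 0 with lactation (median -1.12), against 50.5% of all genes. They were led by the homing receptors Ccr9 (-2.19), Ccr7 (-2.16) and Cxcr3 (-1.84), at edgeR adjusted p from 0.128 to 0.163. At 3 weeks 14 of 18 were below 0 (median -0.85), against 52.3% of all genes. They were led by Il2ra (-1.81, edgeR adjusted p = 0.177), a chain of the interleukin-2 receptor, and Ccr9 (-1.70, 0.326). Foxp3, the regulatory T cell factor, named after its values were seen, lay on the other side of 0 at both times, at 0.97 at 1 week (SE 0.345, edgeR adjusted p = 0.145) and 1.16 at 3 weeks (SE 0.352, 0.0859).

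Markers of other cells varied with some of the genes. Summed macrophage and monocyte markers (16 of 16 with a row) ran from 861.7 to 978.6 CPM in 1wk SBI and from 560.3 to 791.2 in 1wk SBI + Lac, and from 688.3 to 1434 in 3wk SBI and 572 to 930.6 in 3wk SBI + Lac. Markers of NK cells (9 of 10 with a row) ran from 3.14 to 6.61 CPM, 1.87 to 3.08, 2.23 to 7.85 and 0.220 to 3.27 in the same order. The NK cell list includes Gzmb, Gzma and Prf1, and the part of T cells in its sum was not tested. Markers of regenerating muscle (6 of 6 with a row) ran from 1450 to 3409, 798.4 to 1245, 268.7 to 782.8 and 220.9 to 266.8 CPM, lower with lactation at both times without overlap. At 1 week the nearest values of the 2 groups were 1450 against 1245, and for Cd28 11.1 against 9.64. At 3 weeks they were 268.7 against 266.8, and for Cd28 6.63 against 3.26. The r of regenerating muscle markers with Cd28 was 0.829 uncentred, a value to which the groups contribute. Skeletal muscle markers (11 of 13 with a row) ran from 95600 to 150000, 148200 to 175900, 138000 to 190200 and 204800 to 230500 CPM, higher with lactation without overlap at 3 weeks. Their r with Cd28 was -0.82 uncentred, a value to which the groups contribute. After centring it was -0.423 (exact permutation p = 0.326, adjusted over 90 relations 0.682). Erythroid markers (5 of 6 with a row) ran from 242.3 to 413.9, 556 to 779.8, 97.3 to 183.1 and 131.9 to 242.2 CPM, higher with lactation without overlap at 1 week. At 1 week the macrophage, NK cell and B cell sums did not overlap either, and were lower with lactation. The part of these cells in the lactation differences of Cd28 and Cd8b was not tested. Mammary epithelium markers (9 of 9 with a row) reached 39.9 CPM in 3wk SBI + Lac replicate 1, and 6 of the 9 were at 0 throughout 1wk SBI and 5 throughout 3wk SBI.

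After centring, Cd3e and Lck had the highest correlations with these sums, at 0.913 each for NK cell markers, 0.823 and 0.846 for B cell and plasma cell markers and 0.787 and 0.832 for macrophage markers. For Cd28 the same values were 0.066, 0.113 and 0.221. Without the 2 libraries rich in B cell markers they were 0.837, 0.792 and 0.629 for Cd3e, and 0.133, 0.405 and 0.431 for Cd28. The highest for Cd28 was with regenerating muscle markers (r = 0.734, rho = 0.685, exact permutation p = 0.0586, adjusted over 90 relations 0.284). There r was 0.725 without the 2 libraries rich in B cell markers. It was 0.52 without the 2 libraries whose marker sum lay farthest from the group mean. Of the 90 relations 0 passed, and the smallest adjusted p in this exact permutation test was 0.116.

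**Figure D5:**
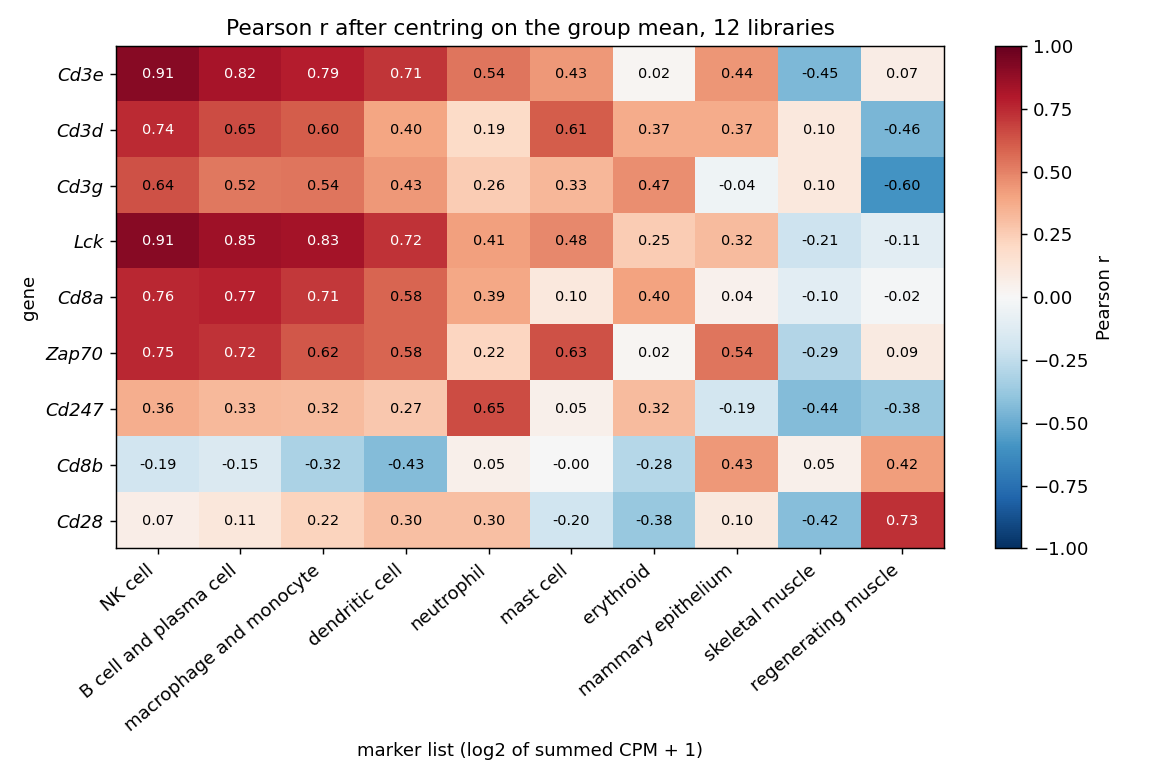
Pearson r, after centring on group means over 12 libraries, of each gene with the summed level of 10 marker lists (log2 of summed CPM + 1). The upper rows are red for NK, B cell and macrophage markers, and the Cd28 row is pale there and red for regenerating muscle. Past the adjusted threshold were 0 of 90 relations, and a single relation could not pass it with the arrangements available.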

How the data were processed

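Poly(A) RNA of rat pubocaudalis was sequenced with a stranded kit, paired-end, in 12 libraries of 2 pooled rats. The authors deposited 1 table: its 1-week columns hold raw counts per gene and its 3-week columns, as deposited, hold expected counts with decimals, which were rounded for the tests although the design had assumed whole counts. Salmon is named in the submitters' processing notes, while its version and settings, the annotation and the genome build are not given in the sources used here. Labels name different rats per pool, so p-values measure the spread between pools. The genes and lists were chosen with earlier results of these data known.

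Differences were tested in R 4.3.3 with edgeR 4.0.16, using TMM scaling, filterByExpr and 1 robust quasi-likelihood fit to all 12 libraries. A gene was called when its p, adjusted by Benjamini-Hochberg over 14599 genes, was under 0.05 and its absolute log2 fold change over 1. The standard error was the log2 fold change over the root of F. Correlations used log2 CPM (prior count 2) and permutations within groups, with 1e+05 random permutations for uncentred values. Both steps were tested on simulated data. Libraries of 1 group differed beyond sampling noise (chi-square per degree of freedom of 20.87 or more), and none was a copy of another. Named were all members, at most the 3 largest changes of each list per comparison with any called, and the 5 genes most like Cd28 and Cd3e; 1 gene under this rule is not reported here. Marker lists were summed CPM. DESeq2 1.42.0, other normalizations and filters, thinning to equal depth, a replicate block and leaving out libraries were alternatives. Promoter sequences came from RefSeq (GRCr8), where 8 of 10 members matched and Cd4 and Cd8b did not.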

Additional observations from a re-analysis of the deposited data

How the results depend on the processing

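Of the 9 genes, 0 were called for lactation at 1 week, but 2 (Cd28 and Cd8b) in DESeq2 on all 12 libraries and 2 on the libraries compared. At 3 weeks the 2 calls became 1, Cd28, in edgeR or DESeq2 on the libraries compared (DESeq2 gave Cd8b no adjusted p), without a low-count filter, with at least 10 counts in every library (Cd8b was not tested there), with a replicate block and after thinning. They were 0 to 2 with 1 library left out, and 0 without 3wk SBI replicate 3 and 3wk SBI + Lac replicate 2 together, an alternative chosen after seeing the data. Over alternatives the Cd28 value at 3 weeks stayed between -2.22 and -1.65 (adjusted p 3.39e-08 to 0.259) and that of Cd8b between -2.88 and -1.69 (0.00744 to 0.313). Values that changed sign for lactation at 3 weeks were Cd3e (-2.29 to 0.83 with 1 library left out), Cd3d (-1.10 to 0.49), Cd247 (-1.09 to 0.33, and 0.41 without both libraries) and Zap70 (-2.49 to 0.002). Cd28 alone was called between the times with lactation, as 1 gene, in DESeq2 on all libraries, in edgeR or DESeq2 on the libraries compared and with the replicate block. Relations of Cd28 that passed were 0, 1 as measured without centring, 2 (Cd8a and Lck) without centring and without both libraries, and 0 to 1 with 1 library left out. Counts over all genes moved more: for lactation at 1 week from 37 to 188 and 333 (DESeq2 on all and compared libraries), 110 (edgeR on compared libraries), 22 (at least 10 counts), 8 (replicate block), 83 (no fold cutoff), 79 (thinned) and 2 to 235 (1 library left out). At 3 weeks the count moved from 108 to 247 and 176 (DESeq2), 64 (replicate block), 371 (no fold cutoff), 22 to 157 (1 left out) and 14 (both out). For the change of the effect it moved from 1 to 11 (DESeq2), 2 (no low-count filter), 2 (replicate block) and 1 to 5 (1 left out). Between the times without lactation it moved from 213 to 103 (edgeR on compared libraries), 737 (no fold cutoff), 61 to 554 (1 left out) and 529 (both out), and with lactation from 113 to 247 and 253 (DESeq2), 191 (edgeR on compared libraries), 293 (no fold cutoff) and 27 to 77 (1 left out). The cause of these moves was not tested. Replicate numbers did not pair the libraries: deviations of same-numbered libraries correlated between -0.233 and -0.05, and the replicate block changed no call of the 9 genes beyond those given.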
